A study of Mus musculus with 8 samples.

Results

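Cytochrome P450 genes were described in mouse liver, kidney, brain and heart. They were taken as every gene of the deposited expression table whose symbol is Cyp followed by a family number, a subfamily letter and a gene number, with or without a last letter. That gave 98 of 27179 genes, in 38 subfamilies of 16 families. Cyp51, Tbxas1, Ptgis and Cyp2ab1 are P450 genes whose symbols lie outside that form and were kept apart. The total RNA of 8 libraries was sequenced, 1 FFPE and 1 frozen library of each of the 4 organs. Formalin-fixed, paraffin-embedded (FFPE) organs had spent their fixation in 10% formalin, and frozen organs had been flash frozen. RNA of both kinds was isolated with Trizol, after deparaffinization for FFPE tissue only, and sheared for 6 min in a PIXUL sonicator. Strain, age, sex and number of mice are not given in the labels, nor whether organs of 1 animal were used or tissue was pooled. With 1 library per organ and preservation, a difference between FFPE and frozen tissue in a single organ has no replicate check.

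P450 enzymes are haem proteins that insert 1 oxygen atom into a substrate, with electrons passed on by the reductase Por in the endoplasmic reticulum or by ferredoxin in mitochondria. Families Cyp1 to Cyp3 are best known for drugs, toxins and steroids, family Cyp4 for fatty acid omega-hydroxylation, and the remaining families for single steps in the handling of bile acids, sterols, steroid hormones, vitamin D and retinoic acid. In rodents the liver is their main site, hepatocytes around the central vein carry many of them, and several differ between the livers of males and females.

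Levels are given as CPM, the number of reads of a gene for each 1000000 reads of the scaled library. Library totals lay between 10180972 reads (FFPE brain) and 20526813 reads (frozen heart). At that depth 3 reads, taken as the floor for a gene without reads, stood for 0.119 CPM (frozen brain) to 0.292 CPM (frozen heart). The 10 hepatocyte, 7 kidney tubule, 5 cardiomyocyte and 4 neuron markers were all called higher in the organ of their label. Of the sex-linked transcripts, Xist, which coats the inactive X chromosome, had 24213, 15389, 9954 and 4652 reads in FFPE liver, kidney, brain and heart, against 3, 1, 13170 and 7 reads in the frozen libraries of those organs. The Y-linked Ddx3y was read at 21.2, 20.4, 12.5 and 17.7 CPM in FFPE liver, kidney, brain and heart, and at 61.3, 30.7, 0 and 61.8 CPM in the frozen ones. All 4 FFPE libraries thus held both kinds of transcript, while frozen liver, kidney and heart held the Y-linked kind with at most 7 Xist reads, and frozen brain held Xist with no Ddx3y read. The sex of the animals behind a library and its preservation cannot be told apart in these data, which touches every FFPE against frozen value below. Frozen brain differed in these transcripts from the 3 other frozen organs, so brain against the other organs holds the same doubt.

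Summed over the 98 genes, P450 transcripts reached 15969 CPM in FFPE liver and 16841 CPM in frozen liver. They took 1.48% of all reads in FFPE liver (95% exact binomial interval 1.48 to 1.49) and 1.28% in frozen liver (1.27 to 1.28), intervals that cover counting error only. The FFPE sum was above the frozen sum when raw library totals were used instead, at 14838 CPM in FFPE and 12789 CPM in frozen liver, so no order between the liver libraries is given. In kidney the sums were 1641 CPM in FFPE and 3079 CPM in frozen tissue, in brain 104 CPM in FFPE and 126 CPM in frozen tissue, and in heart 102 CPM in FFPE and 82.9 CPM in frozen tissue. Liver therefore stood above kidney, and kidney above brain and heart, in both preparations. In a bulk organ, fewer cells of a type and less RNA per cell cannot be told apart.

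**Figure D1:**
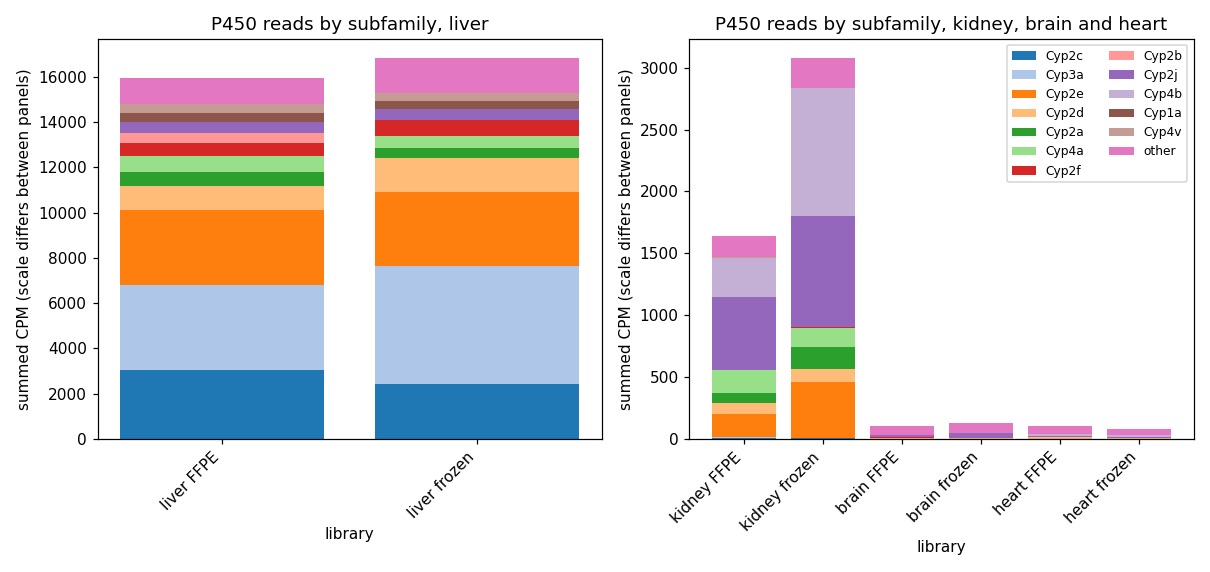
Summed CPM of P450 genes per library, stacked by subfamily, with liver in the left panel and kidney, brain and heart in the right panel on another scale, and the FFPE bar left of the frozen bar in each organ. Liver reached 15969 CPM in FFPE and 16841 CPM in frozen tissue, mostly Cyp2c, Cyp3a and Cyp2e, and kidney 1641 CPM in FFPE and 3079 CPM in frozen tissue, with Cyp2j and Cyp4b the widest bands.

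The organs differed in which subfamilies filled that sum, given as shares of reads that are not corrected for transcript length. In liver the Cyp3a, Cyp2e and Cyp2c subfamilies led. Of all P450 reads Cyp3a held 23.6% in FFPE and 31.0% in frozen liver, Cyp2e 20.6% in FFPE and 19.3% in frozen liver, and Cyp2c, the subfamily with the most members (15), 19.1% in FFPE and 14.5% in frozen liver. In kidney Cyp2j held 35.7% in FFPE and 29.3% in frozen kidney, Cyp4b 19.4% in FFPE and 33.5% in frozen kidney, Cyp2e 11.6% in FFPE and 14.6% in frozen kidney and Cyp4a 11.5% in FFPE and 5.21% in frozen kidney. Cyp2c summed to 3049 CPM in FFPE and 2437 CPM in frozen liver and Cyp3a to 3776 CPM in FFPE and 5226 CPM in frozen liver. In kidney the same subfamilies were at 11.9 CPM in FFPE and 7.43 CPM in frozen kidney and at 0.453 CPM in FFPE and 0.468 CPM in frozen kidney. In brain Cyp46a held 25.2% in FFPE and 27.7% in frozen brain and Cyp2j 19.1% in FFPE and 26.4% in frozen brain of P450 reads. In heart the subfamilies with the highest shares were Cyp2d (15.9% in FFPE and 12.1% in frozen heart), Cyp4b (13.3% in FFPE and 14.7% in frozen heart), Cyp2u (13.0% in FFPE and 10.1% in frozen heart) and Cyp27a (8.97% in FFPE and 10.7% in frozen heart). Next came Cyp4f (8.38% in FFPE and 9.05% in frozen heart), Cyp1b (5.86% in FFPE and 10.2% in frozen heart), Cyp2j (7.71% in FFPE and 6.93% in frozen heart) and Cyp26b (9.19% in FFPE and 5.41% in frozen heart).

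For tests between organs and preparations, log2 values were fitted with organ and preservation terms over the 15819 genes above 1 CPM in at least 2 libraries, and a gene counted as called where its p, adjusted by Benjamini and Hochberg's method, was under 0.05 (limma). Of the 98 P450 genes 69 entered. Against the mean of the other organs, 56 of these 69 were called higher in liver and 8 lower, where 27.3% and 35.2% of all genes tested were called higher and lower. The median difference of the 69 was 7.76 log2 units, beside −0.13 for all genes tested. Many of these genes had no read in some other libraries, and the fitted size then depends on the 0.5 reads added to every count. With each library under 3 reads set at 3 reads the median was 6.40. A gene enters the fit if it is high in the 2 liver libraries alone, so the count over 69 is not one over all 98. Without the FFPE liver library the number called lower was 2, and without frozen heart 5.

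Of the 10 members with the largest liver differences 9 were Cyp1, Cyp2 or Cyp3 genes, and the other was Cyp7a1. Cyp3a11, a main drug-oxidising P450 of mouse liver, had 3080.0 CPM in FFPE and 4619.8 CPM in frozen liver, 0.0906 CPM in FFPE and 0.293 CPM in frozen kidney, 0 CPM in FFPE and 1.07 CPM in frozen brain and 0.227 CPM in FFPE and 0.0975 CPM in frozen heart. It was higher in liver by 14.30 ± 0.96 (adjusted p = 4.52e-06) log2 units, the largest difference of any member, and by at least 13506-fold with low libraries at 3 reads. Its 27 reads in frozen brain came to 0.0232% of the frozen liver level, and albumin (Alb), the plasma protein of hepatocytes, stood at 0.0257% there. Cyp2c29, a Cyp2c enzyme that also oxidises arachidonic acid, had 915 CPM in FFPE and 934 CPM in frozen liver and at most 3 reads in any other library, a difference of 13.81 ± 0.56 (adjusted p = 4.69e-07). Its 2 liver values differed by less than those of Cyp3a11.

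Cyp3a25, at 495 CPM in FFPE and 462 CPM in frozen liver, differed by 13.51 ± 0.79 (adjusted p = 2.22e-06), and it had 3 reads in FFPE brain and none in the 5 other libraries outside liver. Cyp2c50 (475 CPM in FFPE and 436 CPM in frozen liver) and Cyp2c54 (224 CPM in FFPE and 189.7 CPM in frozen liver) differed by 13.11 ± 0.77 and 12.76 ± 0.57 log2 units. Cyp2c54 had no read in any library outside liver, which makes it at least 1158-fold higher there against a floor of 3 reads per library. Cyp2c70, which makes muricholic acids in mice, had 389.8 CPM in FFPE and 292 CPM in frozen liver, and Cyp2c37 292 CPM in FFPE and 166 CPM in frozen liver. Cyp2a12, a steroid hydroxylase, had 338 CPM in FFPE and 247 CPM in frozen liver. Cyp1a2, which oxidises caffeine and aromatic amines, had 406 CPM in FFPE and 356 CPM in frozen liver and differed by 12.73 ± 0.55 (adjusted p = 5.78e-07). In each of these genes both liver libraries stood above every other library.

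**Figure D2:**
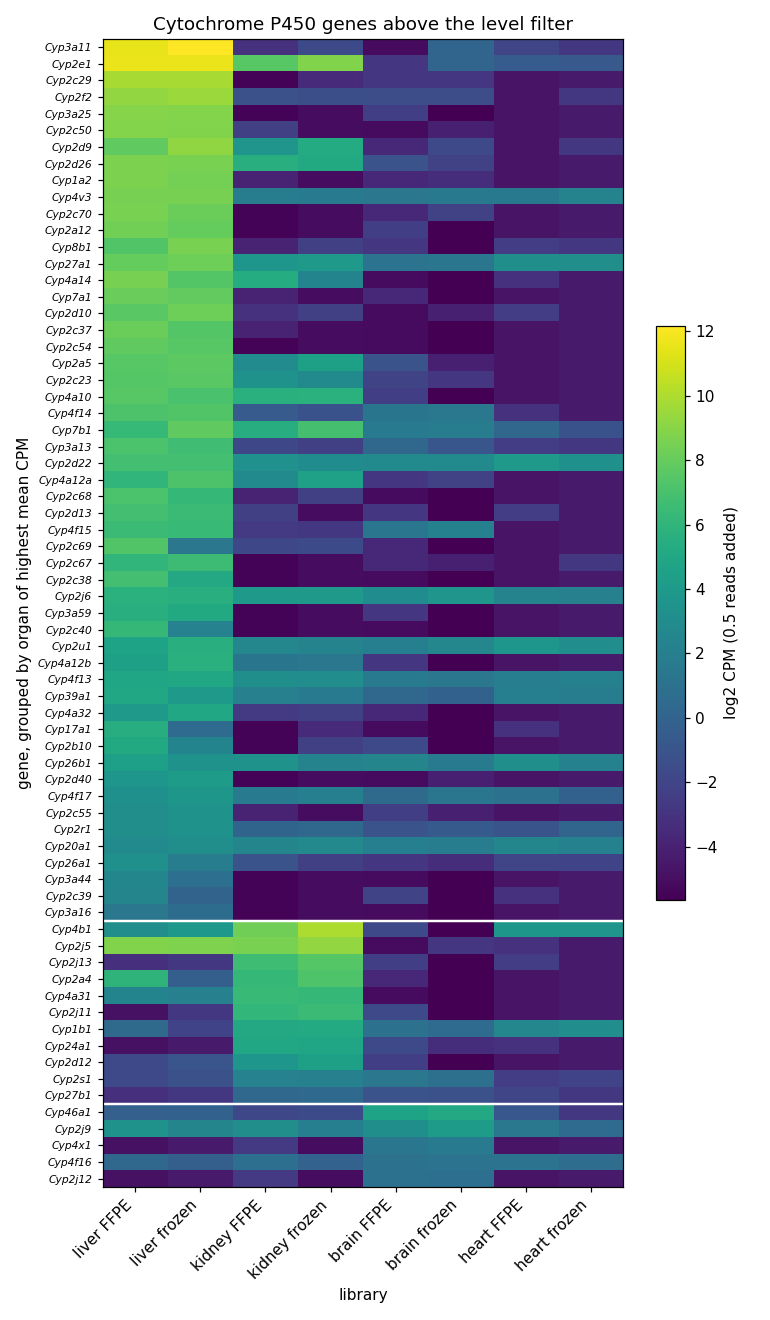
Log2 CPM (0.5 reads added) of the 69 P450 genes above the level filter, 1 row per gene and 1 column per library, with rows grouped by white lines into genes with their highest mean CPM in liver (top), kidney (middle) and brain (bottom). Most rows are bright in the 2 liver columns and dark in the brain and heart columns, while 11 rows are brightest in kidney.

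Several promoters of these genes are shown with the short motifs found in them. RefSeq promoters (GRCm38.p6, 250 bases before to 50 after the start) were given for 75 of the 98 genes, 85 in all. The TATA box letters TATAAA, on either strand, were in 40% of the 85 and in 13.6% of 32851 promoters of all genes. The letters CAAAGTCCA, a form of the site bound by Hnf4a, were in 12.9% of the 85 and in 0.475% of all. Of the tested genes with a promoter, 8 of the 39 that were highest in liver held CAAAGTCCA and 0 of the 12 others. The nuclear receptor element AGGTCA was in 25.9% of the 85 and 16.3% of all, the Ah receptor core GCGTG in 18.8% and 32.4%, and the STAT5 site TTCNNNGAA in 5.88% and 8.30%, each on either strand. Some of these promoters belong to near-identical gene copies and are not independent, and a match is no evidence of binding. The promoters of Cyp3a11 (chr5:145879805-145880104, minus strand), Cyp2c70 (chr19:40187237-40187536, minus strand) and Cyp8b1 (chr9:121916256-121916555, minus strand) hold both, with TATAAA and CAAAGTCCA in capitals on whichever strand they lie. The promoter of the brain gene Cyp46a1 (chr12:108334066-108334365, plus strand) holds neither and has 31 CpG, beside a median of 2 in P450 promoters and 7 in all promoters. That number was not shared by the brain genes, since the 4 tested genes highest in brain with a promoter had a median of 5. Cyp26a1, highest in liver, had 26. TATAAA was held by 23 of the 39 tested genes highest in liver and 2 of the 12 others, so many liver genes lack it too.
Cyp3a11: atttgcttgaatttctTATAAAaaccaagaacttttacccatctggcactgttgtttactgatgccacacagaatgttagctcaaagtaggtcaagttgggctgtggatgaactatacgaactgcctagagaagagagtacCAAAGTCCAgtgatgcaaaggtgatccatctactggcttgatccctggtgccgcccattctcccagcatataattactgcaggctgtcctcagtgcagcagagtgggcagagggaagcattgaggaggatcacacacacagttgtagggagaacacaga
Cyp2c70: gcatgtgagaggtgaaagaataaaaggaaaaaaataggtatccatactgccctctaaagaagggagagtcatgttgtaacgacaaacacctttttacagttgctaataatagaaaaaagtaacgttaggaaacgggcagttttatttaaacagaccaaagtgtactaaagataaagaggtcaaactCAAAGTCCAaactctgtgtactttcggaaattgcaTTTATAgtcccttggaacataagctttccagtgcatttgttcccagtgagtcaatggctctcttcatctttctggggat
Cyp8b1: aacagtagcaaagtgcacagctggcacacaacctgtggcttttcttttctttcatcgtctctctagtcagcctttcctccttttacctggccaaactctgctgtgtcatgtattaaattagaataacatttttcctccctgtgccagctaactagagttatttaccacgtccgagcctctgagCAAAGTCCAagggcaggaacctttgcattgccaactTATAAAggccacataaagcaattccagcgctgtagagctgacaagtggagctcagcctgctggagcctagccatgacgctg
Cyp46a1: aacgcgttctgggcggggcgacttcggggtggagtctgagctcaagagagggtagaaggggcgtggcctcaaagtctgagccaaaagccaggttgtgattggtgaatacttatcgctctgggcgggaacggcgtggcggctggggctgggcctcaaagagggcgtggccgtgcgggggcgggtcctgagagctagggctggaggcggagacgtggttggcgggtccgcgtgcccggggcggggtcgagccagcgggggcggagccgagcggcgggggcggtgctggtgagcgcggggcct

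Per length, which allows genes to be compared with each other, Cyp2e1 and Cyp3a11 led in liver. Cyp2e1, which oxidises ethanol and paracetamol, had 1527 CPM per kb in FFPE and 1505 in frozen liver, counted over all exons of the gene. Cyp3a11 followed with 605 CPM per kb in FFPE and 907 in frozen liver, Cyp2f2, a P450 of periportal hepatocytes, with 301 CPM per kb in FFPE and 349 in frozen liver, and Cyp2c29 with 299 CPM per kb in FFPE and 305 in frozen liver. Per kb of the longest coding transcript, Cyp2e1 had 1797 CPM in FFPE and 1772 CPM in frozen liver and Cyp3a11 1314 CPM in FFPE and 1971 CPM in frozen liver, so their order in frozen liver turns with the length used, as does that of Cyp2f2 and Cyp2c29. Unlike Cyp3a11, Cyp2e1 was also plain in kidney, at 191 CPM in FFPE and 449 CPM in frozen kidney, or 5.79% (FFPE) and 13.8% (frozen) of its liver levels. The 10 hepatocyte markers summed to 0.383% of their liver level in FFPE kidney and 0.470% in frozen kidney. Nearly all of that sum was Apob, with 220 of 225 CPM in FFPE kidney and 297 of 306 CPM in frozen kidney. Alb stood at 0.00449% of its liver level in FFPE kidney and 0.00931% in frozen kidney.

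The Cyp2d subfamily, which holds a steroid 16-alpha hydroxylase (Cyp2d9) among enzymes of drug oxidation, summed to 1071 CPM in FFPE and 1498 CPM in frozen liver and 86.1 CPM in FFPE and 107 CPM in frozen kidney. Cyp2d10 (200.1 CPM in FFPE and 299.9 CPM in frozen liver) and Cyp2d26 (399 CPM in FFPE and 383 CPM in frozen liver) were called higher there, by 11.51 ± 0.68 and 8.87 ± 0.34 log2 units. Cyp2d22 was read in every organ, with 114 CPM in FFPE and 113 CPM in frozen liver, 10.4 CPM in FFPE and 7.90 CPM in frozen kidney, 7.04 CPM in FFPE and 6.94 CPM in frozen brain and 16.0 CPM in FFPE and 9.94 CPM in frozen heart, so its liver difference was smaller, at 3.61 ± 0.18 (adjusted p = 9.83e-07). Cyp2d12 was the kidney member, with 13.4 CPM in FFPE and 22.4 CPM in frozen kidney and 0.276 CPM in FFPE and 0.480 CPM in frozen liver. Over the 8 libraries the log2 values most like those of Cyp3a11 were those of Cyp2d40, Cyp2d10, Cyp2c70, Cyp4v3 and Cyp2c54, with Pearson r of 0.985, 0.978, 0.973, 0.971 and 0.969 (n = 8 libraries, a description, since all points share the same 4 organs and library scaling).

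The bile acid and sterol genes were called higher in liver for 6 of 7 tested, Cyp51 included, and lower for none, where 27.3% and 35.2% of all genes tested were called higher and lower. Cyp7a1, the rate-limiting enzyme of bile acid synthesis from cholesterol, had 274 CPM in FFPE and 232 CPM in frozen liver and 1 read in FFPE kidney, 1 in FFPE brain and none elsewhere outside liver, a difference of 12.53 ± 0.64 (adjusted p = 1.14e-06). Cyp8b1, which sets the share of cholic acid, had 158 CPM in FFPE and 389 CPM in frozen liver and at most 0.176 CPM outside it, a difference of 11.26 ± 0.83 (adjusted p = 7.80e-06). Both genes were read almost solely in liver. Cyp27a1, the mitochondrial sterol 27-hydroxylase, was read in all organs, with 243 CPM in FFPE and 299 CPM in frozen liver, 12.8 CPM in FFPE and 15.3 CPM in frozen kidney, 2.18 CPM in FFPE and 2.54 CPM in frozen brain and 9.18 CPM in FFPE and 8.87 CPM in frozen heart. Its FFPE and frozen values lay close in each organ, and it was higher in liver by 5.33 ± 0.15 (adjusted p = 1.45e-07).

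Cyp7b1, the oxysterol 7-alpha hydroxylase, had 78.5 CPM in FFPE and 221 CPM in frozen liver, 43.1 CPM in FFPE and 119 CPM in frozen kidney, 3.41 CPM in FFPE and 3.49 CPM in frozen brain and 1.14 CPM in FFPE and 0.390 CPM in frozen heart. It was called higher in liver (4.55 ± 0.50) and in kidney (3.37 ± 0.50). Cyp39a1, which hydroxylates 24-hydroxycholesterol, had 32.9 CPM in FFPE and 14.9 CPM in frozen liver and was higher there by 3.13 ± 0.28 (adjusted p = 2.61e-05). Cyp51, the lanosterol demethylase of cholesterol synthesis, had 159 CPM in FFPE and 156 CPM in frozen liver and 119 CPM in FFPE and 119.9 CPM in frozen kidney. Cyp46a1, the seventh gene, was the one not called higher in liver, with 0.827 CPM in FFPE and 0.864 CPM in frozen liver.

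Kidney had 21 of 69 members called higher than the mean of the other organs and 31 lower, with a background of 20.3% and 19.9% of all genes tested. That mean includes liver, so a gene read in liver alone lies below it in kidney, brain and heart alike. Of the 69 genes 5 had no read outside liver. Among them Cyp2c54 was at −3.66 in kidney, −3.84 in brain and −2.68 in heart with low libraries at 3 reads. Counts of lower members in these organs are therefore partly set by the liver levels and the filter. The share called higher was therefore not far from the background, and the members' median was −1.13, or −1.44 with low libraries at 3 reads. Of the 69 genes 11 had their highest mean in kidney, and since kidney was set against the mean of 3 organs, some called genes were higher still in liver, such as Cyp2e1 and Cyp4a10 (51.2 CPM in FFPE and 52.7 CPM in frozen kidney and 188 CPM in FFPE and 131 CPM in frozen liver).

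Cyp2j genes code for epoxygenases of arachidonic acid, and 4 of 7 had their highest mean in kidney. These were Cyp2j13, Cyp2j11, Cyp2j5 and Cyp2j8, the last below the level filter with at most 16 reads, in FFPE kidney. Cyp2j13 had 98.6 CPM in FFPE and 174 CPM in frozen kidney and at most 0.168 CPM in every other library, a difference of 10.50 ± 0.83 (adjusted p = 3.78e-05). Cyp2j11 was like it, with 71.0 CPM in FFPE and 89.8 CPM in frozen kidney and a difference of 10.34 ± 1.03 (adjusted p = 0.000114). Cyp2j5 was shared with liver, at 390.2 CPM in FFPE and 618 CPM in frozen kidney and 437 CPM in FFPE and 420.4 CPM in frozen liver, so that liver led in FFPE tissue and kidney in frozen tissue. Its kidney difference was 8.61 ± 0.56 (adjusted p = 1.56e-05) and its liver difference 8.35 ± 0.56 (adjusted p = 4.26e-06). Cyp2j6 was read in all 4 organs and was highest in liver. It had 53.3 CPM in FFPE and 47.5 CPM in frozen liver and 16.0 CPM in FFPE and 15.9 CPM in frozen kidney. In brain it had 8.04 CPM in FFPE and 12.7 CPM in frozen tissue, and in heart 4.85 CPM in FFPE and 4.29 CPM in frozen tissue.

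Cyp4b1, which oxidises fatty acids and some protoxins, had 318 CPM in FFPE and 1030.3 CPM in frozen kidney, 13.6 CPM in FFPE and 12.2 CPM in frozen heart, 8.96 CPM in FFPE and 14.2 CPM in frozen liver and 0.279 CPM in FFPE and 0 CPM in frozen brain. The difference in kidney was 7.99 ± 0.87 (adjusted p = 0.000183). Per length Cyp4b1, Cyp2j5 and Cyp2e1 led the kidney. Cyp4b1 had 141 CPM per kb in FFPE and 457 in frozen kidney, Cyp2j5 166 CPM per kb in FFPE and 264 in frozen kidney and Cyp2e1 88.4 CPM per kb in FFPE and 208 in frozen kidney. Cyp4b1 was first in frozen kidney and Cyp2j5 in FFPE kidney, where the order turned per kb of the longest coding transcript, with Cyp4b1 at 168 and Cyp2j5 at 166 CPM per kb. Cyp4a31, a fatty acid omega-hydroxylase, had 87.0 CPM in FFPE and 76.0 CPM in frozen kidney and 5.31 CPM in FFPE and 4.32 CPM in frozen liver, a kidney difference of 8.90 ± 0.46 (adjusted p = 6.73e-06). Its neighbour Cyp4a32 had 0.136 CPM in FFPE and 0.176 CPM in frozen kidney, against 15.7 CPM in FFPE and 30.9 CPM in frozen liver. Cyp4a31 and Cyp4a32 transcripts share 96.0% of aligned bases, and Cyp4a10 shares 95.7% and 97.2% with them.

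The vitamin D genes divided by organ as well. Cyp24a1, which breaks down the active hormone, had 31.0 CPM in FFPE and 29.0 CPM in frozen kidney and 0 reads in both liver libraries, and was higher in kidney by 8.54 ± 0.62 (adjusted p = 2.60e-05). Cyp27b1, which makes the active hormone, was low but also a kidney gene, at 1.27 CPM in FFPE and 1.35 CPM in frozen kidney and at most 0.447 CPM elsewhere (2.60 ± 0.56 (adjusted p = 0.00652)). Cyp2r1, the 25-hydroxylase, was a liver gene, at 9.03 CPM in FFPE and 10.8 CPM in frozen liver, 1.04 CPM in FFPE and 1.23 CPM in frozen kidney, 0.447 CPM in FFPE and 0.634 CPM in frozen brain and 0.455 CPM in FFPE and 1.07 CPM in frozen heart (3.66 ± 0.40 (adjusted p = 7.86e-05) in liver). Vdr, the receptor of the hormone, followed the kidney pattern with 81.1 CPM in FFPE and 98.7 CPM in frozen kidney and 0.0689 CPM in FFPE and 0.0960 CPM in frozen liver.

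Set directly against kidney, liver had 50 of 69 members called higher and 9 lower, beside 18% and 23.2% of all genes tested. The member median was 4.23 log2 units, or 4.02 with low libraries at 3 reads, and −0.08 for all genes tested. The 9 lower ones were Cyp2j11 (−10.15 ± 1.26), Cyp2j13 (−10.07 ± 1.02), Cyp24a1 (−9.53 ± 0.76), Cyp1b1 (−5.94 ± 0.66), Cyp4b1 (−5.66 ± 1.07), Cyp2d12 (−5.42 ± 1.05), Cyp4a31 (−4.07 ± 0.56), Cyp2s1 (−3.62 ± 0.55) and Cyp27b1 (−3.45 ± 0.69). Cyp1b1, which oxidises oestrogens and polycyclic hydrocarbons, had 1.38 CPM in FFPE and 0.192 CPM in frozen liver and 33.9 CPM in FFPE and 37.9 CPM in frozen kidney. Cyp2s1 had 0.276 CPM in FFPE and 0.384 CPM in frozen liver and 4.71 CPM in FFPE and 4.27 CPM in frozen kidney.

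**Figure D3:**
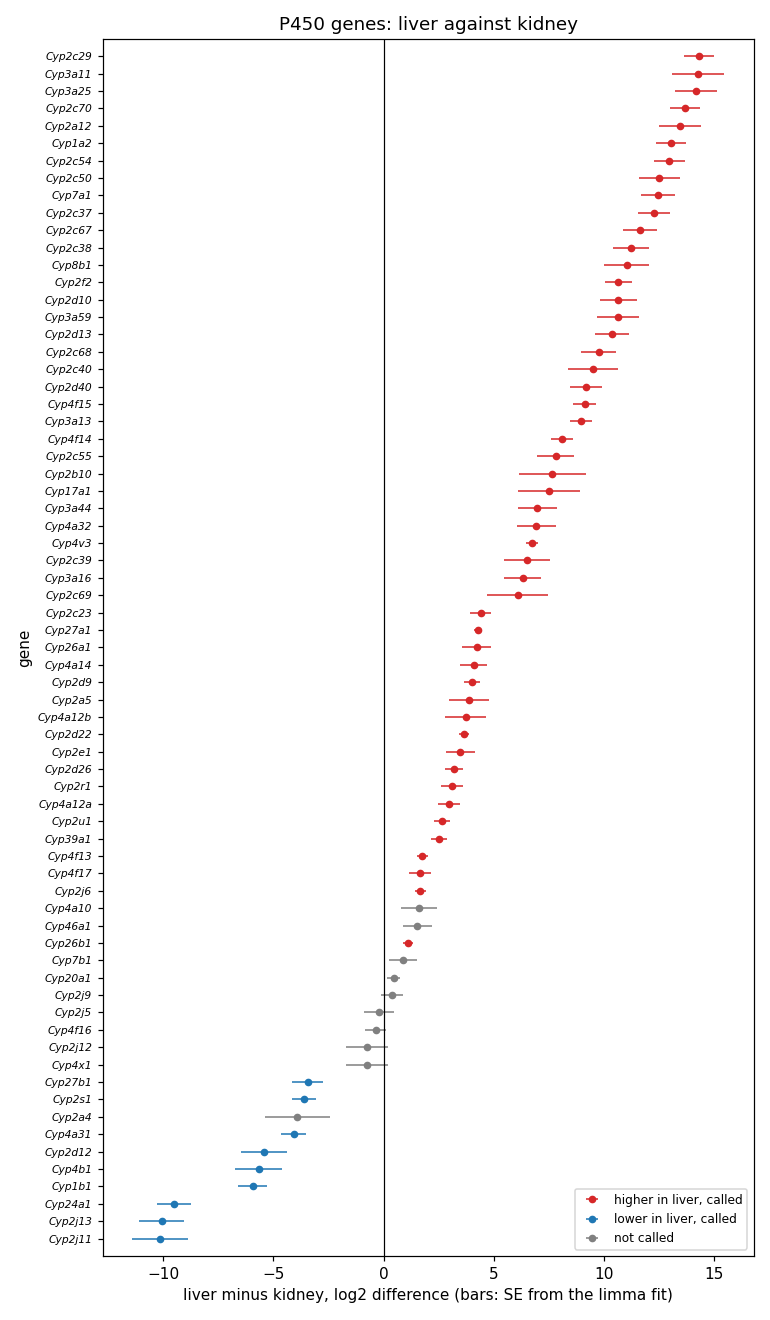
Liver minus kidney log2 difference of each of the 69 P450 genes tested, 1 row per gene, with points for the limma estimate, bars for its standard error and colours for the call. The 50 genes called higher in liver lie right of 0, and the 9 called lower, with Cyp2j11, Cyp2j13 and Cyp24a1 farthest, lie left of it.

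Some near-identical copies differed in their organ. Cyp2a4 and Cyp2a5 are steroid and coumarin hydroxylases whose transcripts share 98.3% of aligned bases. Cyp2a4 had 73.6 CPM in FFPE and 154 CPM in frozen kidney and 60.8 CPM in FFPE and 0.768 CPM in frozen liver. Cyp2a5 had 7.84 CPM in FFPE and 22.0 CPM in frozen kidney and 185 CPM in FFPE and 207 CPM in frozen liver. Their promoters (GRCm38.p6, chr7:26306942-26307241, plus strand and chr7:26835089-26835388, plus strand) are shown because they, too, share 98.3% of aligned bases, with 5 substitutions and 1 unmatched base at an end of each, all in capitals.
Cyp2a4: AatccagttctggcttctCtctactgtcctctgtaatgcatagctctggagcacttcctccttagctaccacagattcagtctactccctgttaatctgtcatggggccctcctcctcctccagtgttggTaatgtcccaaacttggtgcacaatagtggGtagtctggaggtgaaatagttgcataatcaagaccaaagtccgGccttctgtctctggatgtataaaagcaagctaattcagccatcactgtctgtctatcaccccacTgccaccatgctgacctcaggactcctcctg
Cyp2a5: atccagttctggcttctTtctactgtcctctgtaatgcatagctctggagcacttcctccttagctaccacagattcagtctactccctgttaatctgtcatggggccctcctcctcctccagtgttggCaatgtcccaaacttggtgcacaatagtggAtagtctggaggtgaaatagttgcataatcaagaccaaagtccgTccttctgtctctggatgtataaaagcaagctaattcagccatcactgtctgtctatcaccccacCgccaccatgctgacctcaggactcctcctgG

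Across the members, 38 of 272 pairs within a subfamily shared over 90% of aligned transcript bases, and 35 members belonged to at least 1 such pair. Of the 22 such pairs with both genes tested, 5 had their highest mean in different organs. The sources used here do not say how reads that match several copies were counted, so the values of single copies, among them Cyp3a11, Cyp2d9, Cyp2c69, Cyp2b9 and the Cyp4a genes, are uncertain. Genes also lay close together on chromosomes. Of the 14 Cyp2c genes within chr19:39006940-40187286 (RefSeq, GRCm38.p6) 12 had their highest mean in liver, as did 8 of 8 Cyp3a genes within chr5:145345149-146114978. The 7 Cyp2j genes within chr4:96042660-96664171 were divided, with 4 highest in kidney, 2 in brain and 1 in liver.

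Brain had 6 of 69 members called higher than the mean of the other organs and 55 lower, beside 34.7% and 31.6% of all genes tested. As in kidney, genes read in liver alone lie on the lower side here. Cyp46a1, the neuronal cholesterol 24-hydroxylase, led with 26.2 CPM in FFPE and 35.0 CPM in frozen brain and at most 0.864 CPM in every other library, a difference of 6.14 ± 0.54 (adjusted p = 1.90e-05). Cyp4x1, a Cyp4 member known from brain that oxidises anandamide in its human form, had 2.51 CPM in FFPE and 3.45 CPM in frozen brain and was otherwise read only in FFPE kidney, with 3 reads (5.92 ± 0.79 (adjusted p = 0.000199)). Cyp2j12 had 1.95 CPM in FFPE and 1.82 CPM in frozen brain and 3 reads in FFPE kidney, and none elsewhere (5.28 ± 0.78 (adjusted p = 0.000366)). These 3 genes stood above every other library in both brain libraries.

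The 3 other genes called higher in brain were not highest there in every preparation. Cyp4f15 had 2.57 CPM in FFPE and 4.52 CPM in frozen brain, against 89.2 CPM in FFPE and 82.0 CPM in frozen liver, and its call of 2.06 ± 0.43 (adjusted p = 0.0026) rests on kidney and heart values near 0. On log2(CPM + 5) the difference was −0.64. Cyp2s1 had 2.68 CPM in FFPE and 1.86 CPM in frozen brain and 4.71 CPM in FFPE and 4.27 CPM in frozen kidney (1.67 ± 0.45 (adjusted p = 0.0102)). Cyp2j9 had 9.38 CPM in FFPE and 18.6 CPM in frozen brain, 11.4 CPM in FFPE and 5.57 CPM in frozen liver, 9.02 CPM in FFPE and 4.16 CPM in frozen kidney and 2.81 CPM in FFPE and 1.46 CPM in frozen heart, so liver led in FFPE tissue and brain in frozen tissue (1.50 ± 0.41 (adjusted p = 0.0103)). Without the frozen brain library its difference was 0.50 (adjusted p = 0.233). The lowest brain values against the other organs were those of Cyp4b1 (−9.13 ± 0.87), Cyp2j5 (−8.65 ± 0.56), Cyp4a14 (−8.11 ± 0.51), Cyp2e1 (−7.77 ± 0.53) and Cyp4a10 (−6.82 ± 0.66).

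Heart had 0 of 69 members called higher and 53 lower with limma, beside 21.5% and 28.7% of all genes tested. Genes read in liver alone lie on the lower side in heart as well, so the number lower is partly set by the liver levels. At an unadjusted p under 0.05 the number higher was still 0, while limma's voom called 1, and 1 was called without the FFPE brain or the FFPE liver library. The members with the most reads over both heart libraries, without regard to length, were Cyp2d22 (16.0 CPM in FFPE and 9.94 CPM in frozen heart), Cyp4b1 (13.6 CPM in FFPE and 12.2 CPM in frozen heart), Cyp2u1 (13.3 CPM in FFPE and 8.38 CPM in frozen heart), Cyp27a1 (9.18 CPM in FFPE and 8.87 CPM in frozen heart), Cyp26b1 (9.40 CPM in FFPE and 4.48 CPM in frozen heart) and Cyp1b1 (5.99 CPM in FFPE and 8.48 CPM in frozen heart). Each was higher in liver or kidney in both preparations. Cyp1b1 had the largest positive difference, 1.11 ± 0.54 (adjusted p = 0.117). Cyp2d26 (−8.67 ± 0.34) and Cyp2j5 (−8.31 ± 0.56) had the most negative ones, with no read and 1 read over both heart libraries.

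The retinoic acid and steroid hormone genes differed in how widely they were read. Cyp26b1, which clears retinoic acid, was read in every library, with 21.6 CPM in FFPE and 11.4 CPM in frozen liver, 10.7 CPM in FFPE and 4.92 CPM in frozen kidney, 5.58 CPM in FFPE and 3.09 CPM in frozen brain and 9.40 CPM in FFPE and 4.48 CPM in frozen heart. It was higher in liver by 1.43 ± 0.20 (adjusted p = 0.00029). Cyp26a1 had 9.71 CPM in FFPE and 3.46 CPM in frozen liver and under 0.5 CPM elsewhere (4.79 ± 0.54 (adjusted p = 9.19e-05)), and Cyp26c1 at most 18 reads, in FFPE kidney. Of the 6 steroid hormone genes Cyp17a1, the 17-alpha hydroxylase, passed the level filter, with 43.4 CPM in FFPE and 1.44 CPM in frozen liver (7.56 ± 1.14 (adjusted p = 0.000527)). Cyp11a1, which starts steroid synthesis, had at most 8 reads (FFPE brain), Cyp19a1 (aromatase) at most 9 (frozen brain), Cyp11b1 8 and Cyp21a1 11 (both FFPE kidney), and Cyp11b2 1 read in all. The 9 adrenal cortex markers, which include 4 of these genes, summed to 129 reads in FFPE kidney and 15 in frozen kidney, and 9 to 54 reads in the other libraries. Their part in the kidney values was not tested. Cyp20a1, an orphan P450, was read in every library, from 3.77 CPM in frozen brain to 9.02 CPM in frozen liver.

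Between preparations few P450 genes were called across all 4 organs, a share near that of all genes. With 3 residual degrees of freedom the test can miss differences, so genes not called are not shown to be unchanged. In FFPE against frozen tissue 1 of 69 was called higher and 1 lower, beside 1.2% and 2.18% of all genes tested. With limma 6 of the 69 had an unadjusted p under 0.05, beside 3411 of all 15819 genes tested. The member median was 0.30 log2 units, beside 0.07 for all genes. Cyp26b1 was higher in FFPE tissue of each organ, by 0.98 ± 0.17 (adjusted p = 0.0266). Cyp2d9, the male-biased steroid 16-alpha hydroxylase of mouse liver, had 226 CPM in FFPE and 593 CPM in frozen liver, 12.7 CPM in FFPE and 40.1 CPM in frozen kidney, 1 read in FFPE and 7 in frozen brain, and 0 in FFPE and 1 in frozen heart. It was lower in FFPE tissue, at −1.71 ± 0.25 (adjusted p = 0.0174). The Cyp26b1 call was lost without any single library except frozen heart (adjusted p over the 8 omissions 0.0493 to 0.173), and the Cyp2d9 call without any single brain, kidney or liver library (0.0218 to 0.148). Both were lost without the mean-variance trend (adjusted p 0.160 each). By contrast voom called 8 members higher and 4 lower, beside 572 higher and 835 lower of all 15819 genes tested.

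The largest differences in favour of FFPE tissue were not called. Cyp2d13 was at 1.99 ± 0.55, Cyp2c69 at 1.89 ± 0.99 and Cyp2c39 at 1.74 ± 0.74 in FFPE against frozen tissue, and Cyp3a11 at −1.63 ± 0.83, Cyp2e1 at −1.01 ± 0.46 and Cyp4a12a at −0.99 ± 0.36, with adjusted p from 0.0896 to 0.311. Outside liver most of these rest on a few reads. Of the 69 genes, 66 had the same highest organ in FFPE as in frozen tissue, and the 3 exceptions were Cyp2j5, Cyp2j9 and Cyp4f16. Cyp4f16 stayed between 0.768 and 2.20 CPM in all 8 libraries.

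Within liver the FFPE and frozen values of 50 of 69 members lay within 2-fold of each other, or 72.5%, beside 85.1% of all genes tested. In kidney 63.8% of members and 82.8% of all genes lay within 2-fold, in brain 56.5% and 85.4%, and in heart 75.4% and 80.7%. Of the members above 1 CPM in both libraries of an organ, 41 of 57 in liver, 23 of 33 in kidney, 19 of 19 in brain and 12 of 13 in heart lay within 2-fold. Genes known to differ between male and female mouse liver were taken from lists chosen with earlier results of these data known, and Cyp2b9, Cyp2b13, Cyp3a41a and Cyp3a41b of them are not among the 69. All 11 female-biased members were higher in FFPE than in frozen liver, 9 of them over 2-fold, and they summed to 1245 CPM in FFPE and 311 CPM in frozen liver. All 5 male-biased members were lower in FFPE liver, summing to 419 CPM in FFPE and 1059 CPM in frozen liver. Of the 66 members above 1 CPM in a liver library, 18 were over 2-fold higher in FFPE and 6 in frozen liver. Of all genes tested 10.1% and 4.82% were. The shift was not confined to the lists, as Cyp17a1, Cyp1b1, Cyp2a22, Cyp2b10, Cyp2c39 and Cyp2g1 were over 4-fold higher in FFPE liver. In kidney, of the same female-biased genes, Cyp4a14 was higher and Cyp2a4 lower in FFPE tissue. Cyp4a10 had an FFPE over frozen ratio of 0.971 (0.889 to 1.06) and Cyp2c69 of 0.929 (0.236 to 3.85) there, with exact 95% counting intervals in brackets that include 1, and the others had at most 2 reads in a kidney library. In kidney the male-biased ones summed to 71.0 CPM in FFPE and 189.8 CPM in frozen kidney. Among them Cyp2u1 and Cyp4a12b had FFPE over frozen ratios there of 1.17 (0.885 to 1.56) and 0.933 (0.614 to 1.42), with counting intervals that include 1. The part of the animals' sex in these differences was not tested.

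Cyp2b9, a female-biased steroid hydroxylase of mouse liver, had 4205 reads in FFPE liver and 1 in frozen liver, a ratio of 3018 (541 to 119224), again with its counting interval. Cyp2b13 had 1249 reads in FFPE and 0 in frozen liver, which makes it at least 299-fold higher in FFPE liver against a floor of 3 reads. Cyp2a4 had 882 reads in FFPE and 8 in frozen liver, a ratio of 79.1 (40.0 to 184). For Cyp2a22 the reads were 662 reads in FFPE and 7 in frozen liver, a ratio of 67.9 (32.8 to 169), and for Cyp3a41a 32 reads in FFPE and 1 in frozen liver, a ratio of 23.0 (3.84 to 935). In these genes FFPE liver was high and frozen liver near the floor. Cyp2c69 had 2381 reads in FFPE and 27 in frozen liver, a ratio of 63.3 (43.4 to 96.2), and Cyp2c40 1075 reads in FFPE and 50 in frozen liver, a ratio of 15.4 (11.6 to 20.9). Cyp17a1 had 630 reads in FFPE and 15 in frozen liver, a ratio of 30.1 (18.1 to 54.2). These intervals compare 2 libraries and cover counting error only.

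In the other direction, Cyp7b1 (0.356 (0.331 to 0.382)), Cyp2d9 (0.382 (0.366 to 0.398)), Cyp8b1 (0.405 (0.384 to 0.426)), Cyp4a12a (0.444 (0.409 to 0.481)) and Cyp4a12b (0.447 (0.388 to 0.515)) had FFPE over frozen ratios under 0.5 in liver. Cyp2d9, Cyp4a12a and Cyp7b1 were on the same side in kidney, at 0.317 (0.274 to 0.364), 0.292 (0.241 to 0.353) and 0.363 (0.336 to 0.393). Cyp4b1 (0.309 (0.300 to 0.317)), Cyp2e1 (0.425 (0.409 to 0.441)) and Cyp2a4 (0.477 (0.448 to 0.508)) were lower in FFPE kidney too, and Cyp4a14, a peroxisome proliferator-responsive omega-hydroxylase, was higher, at 41.1 CPM in FFPE and 5.27 CPM in frozen kidney (7.80 (6.28 to 9.80)). The 10 genes of pericentral hepatocytes had FFPE over frozen ratios in liver from 0.667 (0.658 to 0.675) for Cyp3a11 to 1.76 (1.67 to 1.87) for Cyp2c37. Of them 6 were higher and 4 lower in FFPE liver. All lay within 2-fold, as did 72.5% of the tested members and 85.1% of all genes tested. Cyp2e1 had 3295 CPM in FFPE and 3247 CPM in frozen liver.

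**Figure D4:**
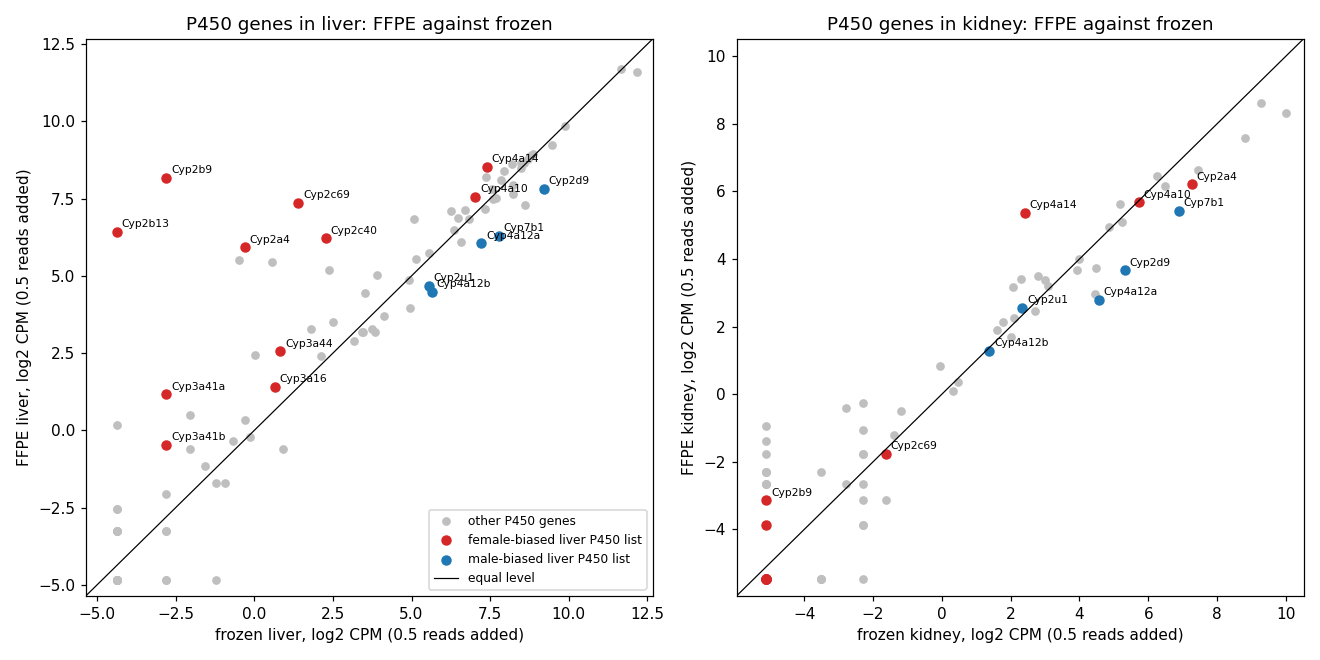
Log2 CPM (0.5 reads added) in the FFPE library (vertical axis) against the frozen library (horizontal axis) of liver (left panel) and kidney (right panel), 1 point per P450 gene, with the line of equal levels and colours for genes listed as female-biased, male-biased or neither in mouse liver. In the liver panel the 11 female-biased genes lie above the line and the 5 male-biased genes below it.

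Whether the preservation difference in liver or kidney departed from that in the other organs was tested with interaction terms in limma. None of 69 members was called in liver (smallest adjusted p 0.471) or in kidney, where 0.00632% and 0% of all genes tested were called. An unadjusted p under 0.05 was found for 5 members in liver and 4 in kidney, beside 587 and 406 of all 15819 genes tested. In liver those 5 were Cyp2a4, Cyp2c69, Cyp17a1, Cyp2c40 and Cyp1b1, all more positive in liver, and voom called 1 member there and 0 in kidney. With 2 residual degrees of freedom this test can miss large differences.

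Most genes that P450 enzymes work with were also called higher in liver. Of 9 redox partners 8 were called higher in liver and 4 in kidney, where 27.3% and 20.3% of all genes tested were called higher. In brain 5 and in heart 6 were called lower, beside 31.6% and 28.7% of all genes. Por, the reductase of all microsomal P450 enzymes, had 144 CPM in FFPE and 124 CPM in frozen liver, 61.7 CPM in FFPE and 106 CPM in frozen kidney, 14.3 CPM in FFPE and 26.6 CPM in frozen brain and 14.5 CPM in FFPE and 13.7 CPM in frozen heart (2.24 ± 0.23 (adjusted p = 5.23e-05) in liver). All 9 haem synthesis genes were called higher in liver and lower in brain, beside the same 27.3% and 31.6%. Alas2, the red cell form of the first enzyme, was highest in heart, at 125 CPM in FFPE and 97.0 CPM in frozen heart and 28.6 CPM in FFPE and 50.4 CPM in frozen liver. Alas1, the first enzyme of haem synthesis outside red cells, had 247 CPM in FFPE and 151 CPM in frozen liver and 14.0 CPM in FFPE and 14.1 CPM in frozen brain. Neither list had a member called between FFPE and frozen tissue.

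Of 14 regulators of P450 genes 13 were called higher in liver and 1, Vdr, lower, beside 27.3% and 35.2% of all genes tested. Nr1i3, the receptor CAR that drives Cyp2b genes, had 105 CPM in FFPE and 81.5 CPM in frozen liver and at most 1 read in every other library. Nr1i2, the receptor PXR that drives Cyp3a genes, had 70.5 CPM in FFPE and 43.7 CPM in frozen liver and 2.08 CPM in FFPE and 2.46 CPM in frozen kidney. Hnf4a was shared, at 507 CPM in FFPE and 442 CPM in frozen liver and 334 CPM in FFPE and 401 CPM in frozen kidney. In kidney 6 of the 14 were called higher and 4 lower, beside 20.3% and 19.9%.

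The 29 members below the level filter were mostly near silence. In 25 of them no library held 20 reads, and Cyp2t4 had no read at all. Cyp1a1, the hydrocarbon-induced partner of Cyp1a2, had at most 11 reads, in FFPE liver, and 9 in frozen heart. The 4 with 20 reads or more in a library were Cyp2b9, Cyp2b13, Cyp2a22 and Cyp3a41a, which were left out of the tests because they passed 1 CPM in FFPE liver alone. Counts of called members do not cover these 29.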

How the data were processed

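RNA was sequenced from 8 libraries, 1 FFPE and 1 frozen library of each of 4 mouse organs. The authors deposited log2 CPM values, in which, as the values themselves show, 0.5 reads had been added to every count and libraries scaled to an effective size. HISAT2, featureCounts, limma and the mm10 build are named in the submitters' processing notes. The gene annotation, strand setting, treatment of reads that match several places and scaling method were not given in the sources used here. Reads were recovered from the log2 values, and 100% came out whole within 1e-05. Library totals were 10180972 to 20526813 reads, and intervals and floors of 3 reads cover counting error only.

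The main test used the deposited log2 values of the 15819 genes above 1 CPM in at least 2 libraries, with organ and preservation terms, in limma 3.58.1 (R 4.3.3) with a mean-variance trend. It left 3 residual degrees of freedom. Each organ was set against the mean of the others, liver against kidney, and FFPE against frozen tissue, and a gene was called where its Benjamini-Hochberg adjusted p over all genes tested was under 0.05. Differences are log2 values ± standard error. Nothing in the labels ties libraries to separate animals, so p-values measure only the spread between these libraries, which may be technical. Genes to name were listed by a rule. It took the 10 highest and 5 lowest called members of each organ, and called members or otherwise the largest differences between preparations. It also took the leading member of each subfamily, all members of the pathway lists, and untested members with 20 reads or more in a library. Not all of these are in the text. Left out are, among others, Cyp2c23, Cyp4f13 and Cyp2b10, which lead their subfamilies, and some of the lowest members of kidney and heart. Other genes in the text were chosen after their values were seen. The members and lists were chosen with earlier results of these data known. The sex-linked list, the voom fit, the transcript identity setting and the levels per transcript length were added after the values were seen, and the other settings were planned.

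All 98 members matched a RefSeq gene by Entrez identifier, and 97 had a GENCODE exon length, matched by symbol. Promoters were RefSeq's (GRCm38.p6). Transcripts (GENCODE M21) were aligned in Biopython 1.88. No symbol was given for 1275 genes. The fits were tested on simulated data. Of the regulator list 1 gene, and of the motifs 1, are not reported here.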

Additional observations from a re-analysis of the deposited data

How the results depend on the processing

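Of 913 values of named genes under other settings, 880 kept their direction and their side of the threshold, 30 kept the direction but were no longer called, and 2 became called. In 1 the sign turned: Cyp4f15 in brain was at −0.64 with log2(CPM + 5), and the cause was not tested. The number of members called lower in liver, 8, was 5 without a filter on low values, with a filter at 4 CPM and with quantile normalization. Members called higher in heart, 0, were 1 without a filter and 1 with voom. For FFPE against frozen tissue none was called lower with log2(CPM + 5), and 0 higher and 0 lower without the mean-variance trend. With voom 8 were higher and 4 lower, beside 572 and 835 of all 15819 genes tested, and 2 of these 12 members were shared with the 2 of the main test. For the preservation difference in liver against the other organs, 0 members were called higher, against 2 without a filter, 3 with log2(CPM + 5) and 1 with voom. The causes were not tested. Leaving out each library in turn gave these numbers called higher and lower: 54 to 56 and 2 to 8 in liver, 18 to 21 and 22 to 31 in kidney, 4 to 6 and 41 to 55 in brain, 0 to 1 and 42 to 54 in heart, 46 to 51 and 9 to 10 for liver against kidney, and 0 to 1 and 0 to 1 for FFPE against frozen tissue. In the interaction tests, where only libraries of the other organs could be left out, 0 were called throughout.

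With raw library totals the summed CPM was 14838 in FFPE and 12789 in frozen liver, 2322 in FFPE and 2809 in frozen kidney, 183 in FFPE and 189 in frozen brain, and 85.1 in FFPE and 41.5 in frozen heart. With the P450 genes outside the symbol form it was 16130.2 in FFPE and 16999.9 in frozen liver, 1766 in FFPE and 3204 in frozen kidney, 134 in FFPE and 161 in frozen brain, and 119.5 in FFPE and 96.9 in frozen heart. Without members that share over 90% of transcript bases with another it was 9049.6 in FFPE and 8998 in frozen liver, and 1384 in FFPE and 2684 in frozen kidney. Quantile normalization moved the median of all genes by −0.29 in brain, 0.21 in heart and 0.11 for liver against kidney, and median centring by 0.10 in liver, −0.24 in brain, 0.18 in heart and 0.10 for liver against kidney. No paired analysis was possible because each organ and preservation has 1 library and no replicate numbers, and organ is already a term of the fit. The planned count-based tools were not run, since the deposited unit is log2, and protein identity was not run, since no protein table was used here. Counting limits genes near 3 reads, which at the scaled library sizes stood for 0.119 to 0.292 CPM.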
